A study of Homo sapiens with 7 samples.

Results

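The zinc finger genes of chromosome 19 were followed through the differentiation of human embryonic stem cells towards the endoderm of the pharynx. They were taken as every protein-coding RefSeq gene on chromosome 19 whose symbol is ZNF followed only by digits, which gave 240 of 19974 protein-coding genes. Peaks of each library were assigned to them where the summit lay inside the gene span or within 5 kb of either end. All cells came from H1, a human embryonic stem cell line in long use, and the labels name no genetic change. They were sampled undifferentiated (hESC, 2 libraries), as definitive endoderm (hDE, 2 libraries), as anterior foregut endoderm (hAFE, 2 libraries) and as pharyngeal foregut endoderm (hPFE, 1 library). Accessibility was measured by ATAC-seq, in which the Tn5 transposase cuts open chromatin and tags it with sequencing adapters. Per the labels, the hESC and hDE data were re-analysed from a previous series, which is not said of the later stages. Stage and series therefore cannot be told apart between hDE and hAFE, nor between hESC and hPFE. The labels do not say whether libraries of a stage came from separate cultures, so the spread between them may be technical.

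Genes of this family encode proteins with arrays of C2H2 zinc fingers, each finger contacting a few bases of DNA. Many of those on chromosome 19 also carry a KRAB domain, which recruits the corepressor TRIM28 (KAP1) and, through it, the histone methyltransferase SETDB1 and HP1 proteins. Many such proteins bind transposable elements and keep them silent in pluripotent and early embryonic cells. The genes lie in tandem clusters that arose by repeated duplication, and the chromatin across their 3′ exons is known to carry repressive histone H3 lysine 9 methylation while their promoters stay active.

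The 8 promoters printed here carry the patterns described in the text, each 250 bases before to 50 after a RefSeq start (GRCh38.p14), written 5′ to 3′ along the gene. Capitals mark matches on either strand to any of 10 short motifs, and neighbouring matches may overlap. The first is CCGGAAG, the core bound by ETS factors. AAGATGGC is bound by YY1, while GGGCGG is known as the GC box of the SP factors. The letters CCAAT are bound by the factor NF-Y, and those of the TATA box were searched as TATAAA. For forkhead factors the search used TGTTTAC, and for GATA factors it used AGATAA. The longer motifs of NRF1, BANP and ZNF143 complete the set. ZNF444 and ZNF574 are shown for the 2 tallest starts, ZNF91 and ZNF208 as an open and a closed pair of related genes, ZNF534 for a start without a peak, ZNF536 for the gene with the most regions in its body, and ZNF382 and ZNF565 as 2 of the starts that varied most between stages.
ZNF444, chr19:56141037-56141336, plus strand: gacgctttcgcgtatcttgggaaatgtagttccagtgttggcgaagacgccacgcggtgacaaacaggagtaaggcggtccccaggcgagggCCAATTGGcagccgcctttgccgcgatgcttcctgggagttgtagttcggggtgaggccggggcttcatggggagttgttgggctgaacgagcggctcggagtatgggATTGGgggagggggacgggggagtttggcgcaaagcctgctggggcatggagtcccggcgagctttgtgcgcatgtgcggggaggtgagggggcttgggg
ZNF574, chr19:42075916-42076215, plus strand: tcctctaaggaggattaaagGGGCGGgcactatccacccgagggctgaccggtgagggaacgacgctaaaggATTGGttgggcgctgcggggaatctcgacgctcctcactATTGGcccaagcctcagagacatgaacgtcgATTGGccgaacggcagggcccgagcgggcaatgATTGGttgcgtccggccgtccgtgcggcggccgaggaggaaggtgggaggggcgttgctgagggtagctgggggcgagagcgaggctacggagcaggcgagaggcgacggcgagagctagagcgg
ZNF91, chr19:23395422-23395721, minus strand: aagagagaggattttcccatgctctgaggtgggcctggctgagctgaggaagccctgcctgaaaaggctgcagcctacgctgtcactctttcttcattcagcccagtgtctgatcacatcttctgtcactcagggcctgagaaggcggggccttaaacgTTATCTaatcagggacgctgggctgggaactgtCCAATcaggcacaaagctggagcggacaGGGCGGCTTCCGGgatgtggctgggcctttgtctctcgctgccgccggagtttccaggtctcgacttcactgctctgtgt
ZNF208, chr19:22010894-22011193, minus strand: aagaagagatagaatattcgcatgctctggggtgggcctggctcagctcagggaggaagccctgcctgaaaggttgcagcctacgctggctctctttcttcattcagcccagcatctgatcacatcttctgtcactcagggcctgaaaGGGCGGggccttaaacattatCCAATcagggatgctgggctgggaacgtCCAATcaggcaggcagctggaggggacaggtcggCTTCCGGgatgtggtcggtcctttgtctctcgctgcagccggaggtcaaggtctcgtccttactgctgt
ZNF534, chr19:52428898-52429197, plus strand: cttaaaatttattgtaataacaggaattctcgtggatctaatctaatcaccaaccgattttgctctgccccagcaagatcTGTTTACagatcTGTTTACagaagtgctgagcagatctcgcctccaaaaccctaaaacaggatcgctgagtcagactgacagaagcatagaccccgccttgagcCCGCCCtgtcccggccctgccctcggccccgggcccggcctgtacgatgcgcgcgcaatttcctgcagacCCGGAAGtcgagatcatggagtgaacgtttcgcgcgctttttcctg
ZNF536, chr19:30227638-30227937, plus strand: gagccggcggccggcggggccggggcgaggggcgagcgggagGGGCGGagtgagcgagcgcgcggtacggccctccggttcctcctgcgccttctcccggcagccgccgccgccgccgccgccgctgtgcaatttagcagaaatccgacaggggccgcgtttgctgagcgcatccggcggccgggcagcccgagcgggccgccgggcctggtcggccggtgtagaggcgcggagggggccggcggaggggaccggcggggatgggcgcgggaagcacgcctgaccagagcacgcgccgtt
ZNF382, chr19:36605063-36605362, plus strand: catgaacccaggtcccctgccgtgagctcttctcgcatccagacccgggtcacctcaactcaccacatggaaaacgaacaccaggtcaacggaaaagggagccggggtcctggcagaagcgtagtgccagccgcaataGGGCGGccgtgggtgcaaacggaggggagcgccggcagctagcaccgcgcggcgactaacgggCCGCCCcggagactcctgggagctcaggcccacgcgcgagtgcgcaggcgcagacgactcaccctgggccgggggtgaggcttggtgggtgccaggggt
ZNF565, chr19:36245879-36246178, minus strand: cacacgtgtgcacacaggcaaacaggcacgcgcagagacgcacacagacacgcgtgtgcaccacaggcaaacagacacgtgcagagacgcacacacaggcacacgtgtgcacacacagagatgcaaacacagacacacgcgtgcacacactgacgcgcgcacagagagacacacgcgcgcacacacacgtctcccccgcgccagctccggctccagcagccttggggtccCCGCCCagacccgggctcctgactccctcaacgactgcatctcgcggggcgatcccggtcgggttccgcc

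The promoters of the family shared features that the choice of members did not use. Taking the first listed promoter of each gene, CCGGAAG occurred in 93 of 210 member promoters (44.3%), in 36.9% of 195 promoters of ZNF genes on other chromosomes, in 13.4% of 975 promoters of the other genes of chromosome 19 and in 14.2% of all 15810 promoters. CCAAT occurred in 52.9% of member promoters, 44.1% for ZNF genes elsewhere, 37.3% for other genes of chromosome 19 and 36.3% of all. TATAAA was found in 4 member promoters (1.9%), against 4.62%, 8% and 9.64% in the same order. The GC box occurred in 69.5%, 60%, 65.5% and 58.5% of these sets. For the forkhead letters the shares were 0.952%, 1.54%, 0.821% and 2.62%, and for the GATA letters 5.24%, 3.59%, 5.74% and 7.55%. Each of the other 4 motifs was present in 0.952% to 6.19% of member promoters. The median member promoter had 60% G and C and 20 CpG dinucleotides, against 62.7% and 22 over all genes. These shares are descriptions without a test, and a match is not evidence of binding.

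Between 805 and 963 peaks per library fell at the 240 genes, which was 0.269% to 0.323% of the 298508 to 299374 peaks deposited per library. Depth, read as the background count recovered from the peak values, ran from 2.11 to 7.94 over the libraries. To compare libraries of unequal depth, the 50000 regions of highest −log10 p were taken from each and called strict. Merged over the libraries, they gave 354 regions at the zinc finger genes, of which 228 were strict in all 7 libraries. Marker genes fitted the labels in part. Of 22 regions at hESC markers, 13 and 16 were strict in the hESC libraries and 4 to 7 elsewhere, and of 16 regions at hDE markers, 12 and 9 in hDE, 5 in each hESC library, 9 in each hAFE library and 8 in hPFE. Regions at hAFE markers were not more often strict in hAFE, with 7 and 9 of 21 there, 13 and 8 in hDE, 6 and 8 in hESC and 8 in hPFE. Of 3 regions at POU5F1, 1 and 3 were strict in the 2 hESC libraries and none in the other 5. The single region at TBX1, a pharyngeal factor on both the hAFE and the hPFE list, was strict in hPFE alone. Over the 5 hPFE markers, however, 10 of 33 regions were strict in hPFE against 12 to 17 in the other libraries. Of 32 regions at 3 blood genes (SPI1, PTPRC and RUNX1), 16 were strict in hPFE and 5 to 13 elsewhere. Mesenchymal markers had 5 to 9 of 19 regions strict and neural markers 3 to 6 of 11, and the part of other cell types in the results was not tested.

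Accessibility at the zinc finger genes was concentrated at their starts. RefSeq promoters were listed for 210 of the 240 members, and 35 of these had 2 or more listed starts. A strict region lay within 1 kb of a listed start in 190 of 210 genes in hESC replicate 1, 192 in hESC replicate 2, 196 and 191 in the hDE libraries, 194 in each hAFE library and 195 in hPFE. Both hESC counts were below every hAFE and hPFE count, and the 2 hDE counts spanned those of the later stages; these counts were not tested between stages. The starts of 184 members were strict in all 7 libraries, 12 in some and 14 in none. Of the 30 members without a listed start, 19 had a strict region within 1 kb of an end of the gene in all 7 libraries.

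The share of open starts was 92.0% ± 1.04 (SD over 7 libraries) for the members and 58.7% ± 4.42 for the other genes of chromosome 19. The difference of 33.3 percentage points was positive in 7 of 7 libraries (exact two-sided sign-flip permutation test over libraries, p = 0.0156, the smallest 7 libraries can give, adjusted p = 0.0208 over 4 tests). The same genes were scored in every library, so this test measures the spread between libraries and not that between genes. ZNF genes of other chromosomes stood at 90.4% ± 2.49. The members were higher by 1.57 points, in 5 of 7 libraries, which was not larger than the spread (exact sign-flip permutation test, p = 0.109, adjusted p = 0.109). That comparison depended on the definition of a start: with only the first listed start of each gene the difference was 2.63 points (exact sign-flip p = 0.0469), within 500 bp it was 4.32 points and with 25000 regions per library 5.66 points (exact sign-flip p = 0.0156 for each).

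The inner parts of the gene spans showed the opposite order. In the part of the spans over 1 kb from either end, the members held 1.03 ± 0.132 strict regions per 100 kb, the other genes of chromosome 19 held 2.43 ± 0.748 and ZNF genes elsewhere held 1.40 ± 0.107 (SD, n = 7 libraries). This density keeps starts that lie inside a span. It counted 60 to 84 member regions per library, against 16 to 42 strict regions of the gene body class used below, which leaves out starts and gene ends. The members were lower in 7 of 7 libraries in both comparisons (exact sign-flip permutation test, p = 0.0156 and adjusted p = 0.0208 for each). As for the starts, the test is over libraries and not over genes. Against the other genes of chromosome 19 the gap narrowed to -0.362 per 100 kb in hDE replicate 2, the deepest library. With 25000 regions per library the order against ZNF genes elsewhere turned, to 0.749 for the members and 0.657 for the others (exact sign-flip permutation test, p = 0.0625). Without ZNF536, whose span is the longest of the family, the direction of both differences was the same.

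**Figure D1:**
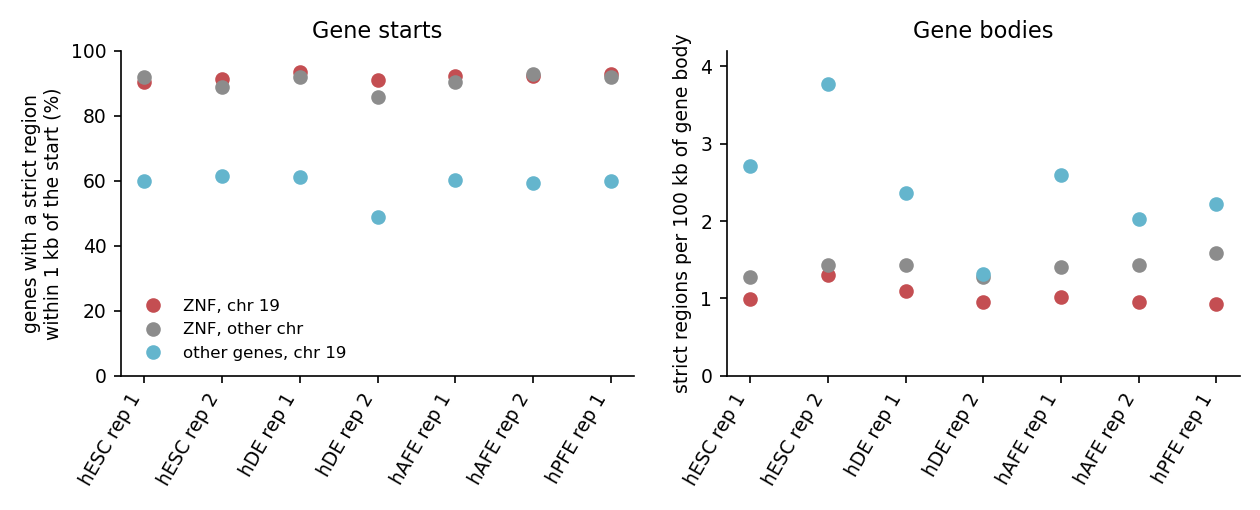
Share of genes with a strict region within 1 kb of a listed start (left, percent) and strict regions per 100 kb of gene body (right) in each of the 7 libraries, for the chromosome 19 ZNF genes (red), ZNF genes of other chromosomes (grey) and other genes of chromosome 19 (blue). Red points lie between 90.5% and 93.3% at starts and between 0.934 and 1.31 in bodies, below grey and blue in bodies in every library. Bodies here are the spans over 1 kb from either end and keep starts that lie inside them.

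The position of the summit was narrow. The strongest strict region at a member start had its summit a median of 46 to 62 bp upstream of the nearest listed start in the 7 libraries, and a median width of 765 to 1007 bp. Among members with 1 listed start, 79.4 strict regions per 100 genes fell in the 500 bp before the start and 10.3 in the 500 bp after it, as means over libraries. In the other genes of chromosome 19 these values were 43.8 and 5.37, and in ZNF genes of other chromosomes 75.2 and 12.0, close to those of the members. By class, 185 of 205 regions at member starts were strict in all 7 libraries (90.2%), against 64.9% of the 12374 regions at starts of other protein-coding genes. Of 71 regions in member bodies, here away from starts and gene ends, 5 were strict in all 7 libraries (7.04%) and 37 in a single library (52.1%). These shares lay near the 6.68% and 46.0% of regions away from starts at other protein-coding genes.

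**Figure D2:**
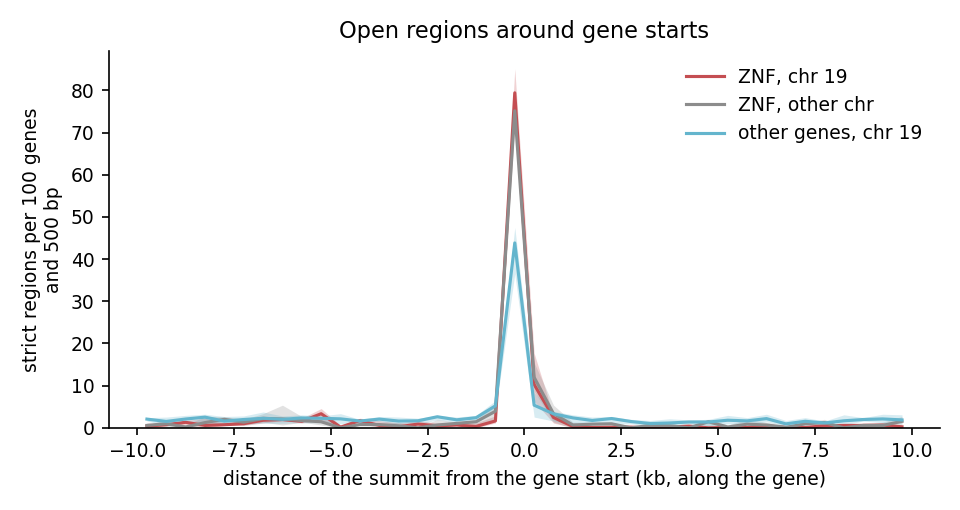
Strict regions per 100 genes in windows of 500 bp, by distance of the summit from the gene start along the gene (kb), for genes with 1 listed start. Lines are means of 7 libraries and bands span the lowest to the highest library; the red line of the chromosome 19 ZNF genes peaks at 79.4 just before the start and is low beyond 1 kb on either side.

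Height was compared on the summit pileup, quantile normalised over the 39728 regions with a peak in all 7 libraries, where 1 is the median of those regions. A total of 202 start regions of members could be compared. Their median relative height was 1.79 and 2.49 in the hESC libraries, 2.104 and 2.31 for hDE, 2.27 and 1.90 for hAFE and 2.21 for hPFE. The stages overlapped, and the lowest and the highest median were both in hESC. At starts of the other genes of chromosome 19 the medians ran from 1.63 to 2.32. Across 195 members, the CpG count of the first listed promoter showed almost no relation to the mean log2 height (Pearson r = -0.022, Spearman rho = -0.022, a description across genes that share libraries). The height was that of the tallest start region, so with several listed starts, count and height may come from different promoters. ZNF574 entered with 6 CpG, whereas its printed promoter has 31.

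The tallest starts by mean height belonged to ZNF444, ZNF574, ZNF8, ZNF837 and ZNF653. ZNF444, a SCAN-domain zinc finger factor, had relative heights of 4.43 and 5.65 in hESC, 4.18 and 5.00 for hDE, 5.31 and 3.87 for hAFE and 4.97 for hPFE. ZNF574 had 3.90 and 5.22, 4.69 and 4.25, 4.23 and 4.21, and 5.29 in the same order. Its printed promoter carries CCAAT at 4 places, all on the opposite strand, and a GC box. In ZNF444 the ranges of hESC, hDE and hAFE overlapped, and in ZNF574 the 2 hESC values spanned those of hDE and hAFE.

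The lowest starts with a height in all libraries were those of ZNF579, ZNF415, ZNF382, ZNF580 and ZNF350, and each of them was strict in only 4 or 6 libraries. ZNF579 had relative heights of 0.914 and 0.596 in hESC, 0.989 and 0.520 for hDE, 0.862 and 0.782 for hAFE and 1.04 for hPFE, so it lay near or below the median shared region in every library. The heights of ZNF415 ran from 0.486 to 1.03 over the 7 libraries.

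The starts of ZNF91, ZNF93 and ZNF274 were strict in all 7 libraries. ZNF91, which represses SVA elements, had relative heights of 2.05 and 2.14 in hESC, 2.27 and 3.49 for hDE, 2.09 and 2.94 for hAFE and 2.33 for hPFE. ZNF93, which represses L1 elements, had 2.79 and 2.91 in hESC, 2.71 and 2.47 for hDE, 2.30 and 2.26 for hAFE and 2.30 for hPFE. Its hESC values were above its hAFE and hPFE values, a difference that did not pass the test. ZNF274, which binds the 3′ ends of other zinc finger genes and recruits SETDB1 there, ranged from 1.88 to 2.58. ZNF534 had no deposited peak at its start in any library.

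ZNF296, ZNF507, ZNF154 and ZNF331 also had a strict start in all 7 libraries. ZNF296, known from pluripotent cells, had 2.05 and 2.05 in hESC, 2.12 and 1.61 for hDE, 1.51 and 1.15 for hAFE and 1.97 for hPFE, at a start it shares with GEMIN7, so that the signal cannot be assigned to either. ZNF507 had 0.755 and 0.758 in hESC, 1.41 and 1.39 for hDE, 0.950 and 0.860 for hAFE and 1.41 for hPFE, with replicates close together. ZNF154, a gene often methylated in tumours, lay between 1.104 and 1.62. ZNF331, an imprinted gene with 6 listed starts, had its tallest start region between 2.61 and 4.44. None of these differences between stages passed the test.

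The family fell into 16 clusters when members over 1 Mb apart were separated. The largest ran from ZNF628 to ZNF446 at the end of the long arm (57 members, chr19:55476617-58489533), with 48 of 52 listed starts strict in all 7 libraries. The cluster from ZNF175 to ZNF331 (39 members, chr19:51571283-53580269) had 25 of 32, and its median relative start height was 1.72 against 2.24 in the largest cluster. The cluster from ZNF101 to ZNF254 next to the centromere (37 members, chr19:19668153-24129968) had 24 of 29, with a median height of 2.41 among those measured. ZNF536 and ZNF507 stood alone, with heights of 1.14 and 1.04.

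**Figure D3:**
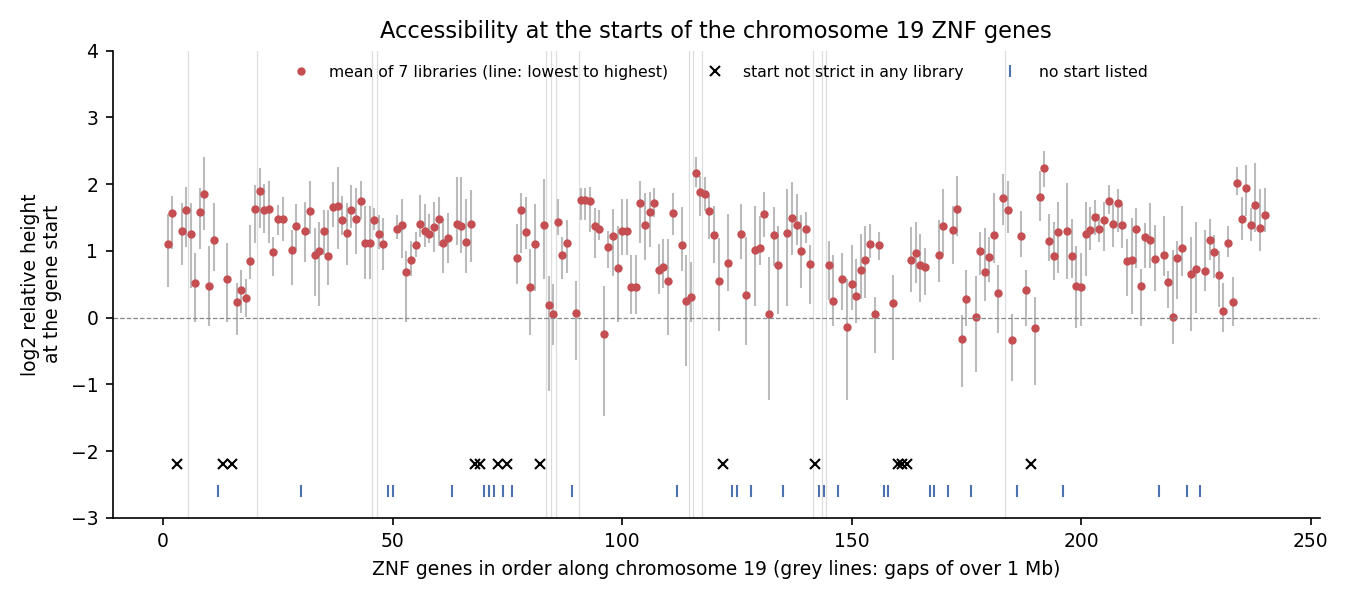
Log2 relative height at the start of each chromosome 19 ZNF gene, in order along the chromosome; points are means of 7 libraries, lines run from the lowest to the highest library, crosses mark the 14 genes whose start was strict in no library and blue ticks the 30 without a listed start. Most points lie above 0, the median shared region, and a row of crosses and ticks without points marks the 9 genes from ZNF208 to ZNF728.

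The 14 members whose start was strict in no library were ZNF556, ZNF177, ZNF560, ZNF208, ZNF257, ZNF492, ZNF723, ZNF726, ZNF404, ZNF541, ZNF528, ZNF534, ZNF578 and ZNF581. At 9 of them no library had a deposited peak within 1 kb of a start. ZNF581 was the exception of the opposite kind, with a peak at a listed start in all 7 libraries and a strict region at the upstream end of its span in all 7. The other 4 with a deposited peak at the start were ZNF556 and ZNF541 (3 libraries each), ZNF560 (2) and ZNF492 (1). CCGGAAG occurred in 9 of the 14 promoters (64.3%) and in 44.0% of the 184 whose start was strict in all libraries, and the median CpG count was 16 against 21.

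The 9 neighbouring members, from ZNF208 to ZNF728 (ZNF208, ZNF257, ZNF676, ZNF729, ZNF98, ZNF492, ZNF99, ZNF723 and ZNF728, chr19:21939815-23003176), had no strict region in any library. This stretch of 1063362 bp was singled out after its values were seen. It held 13 and 2 weaker peaks in hESC, 4 and 4 for hDE, 1 and 5 for hAFE and 23 for hPFE, or 0.094 to 2.16 per 100 kb, whereas the rest of its cluster held 4.91 to 6.77 per 100 kb. ZNF43 before it and ZNF730 after it had regions. The promoters of ZNF208, inside the stretch, and ZNF91, outside it, were identical at 264 of 307 aligned columns (86.0%), and both hold the GC box, CCAAT and CCGGAAG, yet the start of ZNF91 was strict in all 7 libraries. How reads shared by such copies were placed is not given in the sources used here.

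Between stages, few regions of the family changed height. Of 272 member regions with a peak in all libraries, 2 differed between hESC and hDE (limma across all regions, Benjamini-Hochberg adjusted p below 0.05), against 7.69% of all regions. One differed between hDE and hAFE (6.12% of all), 1 between hAFE and hPFE (2.9% of all) and 4 between hESC and hPFE (7.71% of all). Those members' shares were 0.735%, 0.368%, 0.368% and 1.47%. Regions at gene starts rarely changed anywhere: 1 of 214 member regions at starts was called, in hESC to hPFE, where 1.87% of all start regions were. In the other 3 comparisons limma called 0 of the 214, against 1.94%, 1.16% and 0.407% of all start regions, with 9 higher and 2 lower, 0 higher and 1 lower, and 2 higher and 0 lower at an unadjusted p below 0.05. Away from starts, 2, 1, 1 and 3 of 58 member regions were called, against 9.99%, 8.09%, 3.9% and 10% of such regions overall. The 214 are member regions at a start of any protein-coding gene, and they include the 202 compared above at starts of members. These shares were not tested against each other. All 4 calls from hESC to hPFE were lower in hPFE, but without hESC replicate 2 there were 3 higher and 2 lower, of which 2 were among the 4.

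Differences between stages at member starts overlapped the spread between replicates in size. The median absolute log2 difference over the 202 start regions was 0.302 to 0.487 between the 2 libraries of a stage and 0.223 to 0.465 between libraries of different stages. Over all 11309 start regions of the genome the same held, with 0.289 to 0.375 between replicates and 0.251 to 0.516 between stages. Over the 28419 regions of the genome away from starts it was 0.364 to 0.470 between replicates and 0.428 to 0.694 between stages. The median signed difference over the 272 member regions was 0.08 from hESC to hDE, -0.06 from hDE to hAFE, 0.14 from hAFE to hPFE and 0.16 from hESC to hPFE, beside -0.02, 0.02, 0.01 and 0.03 over all regions. The fit takes the spread almost entirely from all regions together, and hPFE, with 1 library, is assumed to vary like the other stages.

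**Figure D4:**
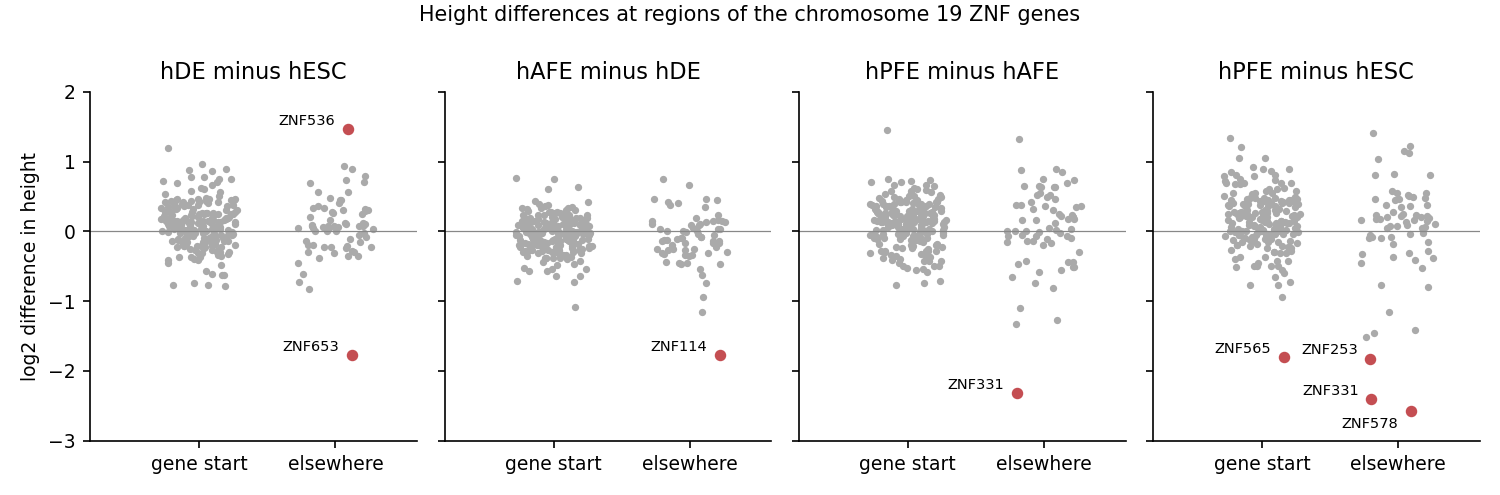
Log2 difference in relative height at 272 regions of the chromosome 19 ZNF genes in each comparison, at starts of these genes (left of each panel) and elsewhere (right); each point is a region, and red points with a gene name passed the test. The only named point at a start is ZNF565 in hPFE minus hESC, and most named points are below 0.

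From hESC to hDE, a region in the last part of ZNF536 (chr19:30682992-30683294) rose. ZNF536 is a repressor of neuronal genes and has the longest span of the family. The relative heights were 0.32 and 0.38 in hESC and 0.82 and 1.15 in hDE, with no overlap, and then 0.39 and 0.49 for hAFE and 0.81 for hPFE (log2 difference hDE minus hESC 1.47 ± 0.47 SE, limma adjusted p = 0.0306). A region 1269 bp downstream of ZNF653 (chr19:11481774-11482882) fell from 1.77 and 2.22 to 0.69 and 0.49 and was 0.57 to 0.75 at later stages (log2 difference -1.77 ± 0.45 SE, limma adjusted p = 0.00304). The ZNF536 call was lost without any 1 of the 4 libraries (limma adjusted p 0.0639 to 0.371), and the ZNF653 call without hDE replicate 2 (limma adjusted p = 0.146) or hESC replicate 2 (limma adjusted p = 0.0550). On the deposited fold enrichment, which divides by a local background, neither passed (limma adjusted p = 0.258 and 0.625).

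From hDE to hAFE, a region 2947 bp outside the span of ZNF114 (chr19:48290274-48291591) fell. Its relative heights were 1.86 and 0.95 in hESC, 2.63 and 2.05 for hDE, 0.70 and 0.65 for hAFE and 0.76 for hPFE (log2 difference -1.78 ± 0.43 SE, limma adjusted p = 0.00169). The hDE values stood above those of both later stages. Its call was lost without hAFE replicate 1, hAFE replicate 2 or hDE replicate 1 (limma adjusted p = 0.0587, 0.0758 and 0.0744) and on the deposited fold enrichment (limma adjusted p = 0.688).

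In hPFE, the region at the upstream end of ZNF331 (chr19:53503325-53504580) was lower than at both earlier stages compared. It lies 17257 bp from the nearest listed start of the gene, inside its span and that of the pseudogene VN1R103P. Its relative heights were 1.00 and 1.00 in hESC, 0.64 and 0.50 for hDE, 1.19 and 0.76 for hAFE and 0.19 for hPFE. The log2 difference was -2.40 ± 0.57 SE against hESC (limma adjusted p = 0.00165) and -2.32 ± 0.57 SE against hAFE (limma adjusted p = 0.00599), the latter lost without hAFE replicate 1 (limma adjusted p = 0.219) and on the deposited fold enrichment (limma adjusted p = 0.0677). These 2 comparisons share the single hPFE library. In it the region had a deposited fold of 2.25, against 5.98 to 13.2 in the other libraries. The weakest peak of that library had a −log10 p of 2.72. A height of 0.19 may thus lie near the lower limit of its list.

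A further 3 regions were lower in hPFE than in hESC. The first of them had the same height (0.19) and fold (2.25) in hPFE as the ZNF331 region, and the same limit applies to it. A body region of ZNF578 (chr19:52492586-52493583), a gene with no peak at its start, had 0.68 and 1.90 in hESC, 1.02 and 0.77 for hDE, 0.60 and 0.35 for hAFE and 0.19 for hPFE (log2 difference -2.58 ± 0.58 SE, limma adjusted p = 0.000724, lost without hESC replicate 2 at limma adjusted p = 0.0727). A region 4573 bp outside ZNF253, within a lncRNA locus (chr19:19860392-19861480), had 2.09 and 3.17 in hESC, 1.64 to 2.44 in hDE and hAFE and 0.73 in hPFE (log2 difference -1.82 ± 0.45 SE, limma adjusted p = 0.00263). On the deposited fold enrichment the ZNF253 region did not pass (limma adjusted p = 0.206).

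The third was the start region of ZNF565 overlapping the promoter printed above (chr19:36244955-36246063). Its relative heights were 1.17 and 2.00 in hESC, 0.97 and 1.50 for hDE, 0.61 and 0.53 for hAFE and 0.44 for hPFE. Every hAFE and hPFE value was thus below every hESC and hDE value. The same line divides the re-analysed libraries from the others, and how much of this split came from the series was not tested. The log2 difference hPFE minus hESC was -1.80 ± 0.55 SE (limma adjusted p = 0.0218). This call was lost without hESC replicate 2 (limma adjusted p = 0.172), on the deposited fold enrichment (limma adjusted p = 0.246) and with the replicate number as a block (limma adjusted p = 0.0981). The other start of ZNF565, which it shares with ZNF146, had heights of 2.75 to 3.83 in all 7 libraries.

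Over the stage means, the median start region of a member spanned 0.46 log2 units between its highest and lowest stage, and 8 of 202 spanned over 1. The widest was that ZNF565 start, at 1.80. A start region of ZNF331, not its tallest, came next at 1.45. Its mean log2 heights were -1.43 in hESC, -1.56 for hDE, -1.67 for hAFE and -0.21 in the single hPFE library. It was thus highest in hPFE, where the upstream end of the gene was lowest, but it passed the test in no comparison. The start shared by ZNF529 and ZNF382 spanned 1.35. ZNF382, a KRAB repressor often silenced in tumours, had relative heights there of 0.36 and 0.56 in hESC, 1.101 and 0.95 for hDE, 1.40 and 0.91 for hAFE and 1.14 for hPFE. Both hESC values were below all others, but no comparison passed the test for this region. Of the start regions, 7 served 2 members each, and 11 were shared with a gene outside the family.

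Presence and absence of regions was compared next. A region was counted as gained where it was strict in every library of the second stage and had no deposited peak in any library of the first, and as lost in the reverse case. From hESC to hDE, 3 of 354 member regions were gained and 2 lost, against 4.33% and 0.936% of the 72203 regions at protein-coding genes. From hDE to hAFE 1 was gained and 4 lost (1.88% and 2.55% of all), from hAFE to hPFE 3 and 3 (7.49% and 3.65% of all), and from hESC to hPFE 6 and 11 (11.9% and 5.73% of all). The members' shares were 0.847% and 0.565%, 0.282% and 1.13%, 0.847% and 0.847%, and 1.69% and 3.11%. Away from gene starts, where 137 member regions lay, 3 were gained and 2 lost from hESC to hDE, against 5.18% and 1.09% of such regions at all genes. From hDE to hAFE these were 1 and 3 (2.24% and 3.04% of all), from hAFE to hPFE 3 and 3 (8.91% and 4.32% of all) and from hESC to hPFE 6 and 10 (14.2% and 6.7% of all). The members' shares away from starts were 2.19% and 1.46%, 0.730% and 2.19%, 2.19% and 2.19%, and 4.38% and 7.30% in the same order. Losses away from starts were thus near the general share from hESC to hDE and from hESC to hPFE, and a little above it.

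These counts rest on the rank that defines a strict region. With 25000 and 100000 regions per library, 1 and 41 regions were gained and 2 and 35 lost from hESC to hPFE, and without hESC replicate 1, the shallowest library, 32 were lost. From hESC to hDE, 7 were gained without hDE replicate 2 and 9 lost without hESC replicate 1. From hDE to hAFE, 3 were gained without hAFE replicate 1 and 2 without either hDE replicate, and from hAFE to hPFE, 5 were gained and 5 lost without hAFE replicate 1 and 11 lost without hAFE replicate 2. Absence from the single hPFE library is a weaker condition than absence from 2 libraries.

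The 24 distinct regions gained or lost in any comparison included 17 in gene bodies and 2 at gene starts. From hESC to hDE, the region of highest −log10 p was in the body of ZNF536 (chr19:30583924-30584700). It had no peak in hESC and a deposited fold enrichment of 12.2 and 21.2 for hDE, 20.7 and 9.98 for hAFE and 2.43 for hPFE. A region in ZNF606 (chr19:57992645-57993233) was present only in hDE, at 13.0 and 20.2, and a region in ZNF558 (chr19:8824380-8825358) had 6.26 and 16.4 for hDE and 2.27 for hAFE replicate 2. The lost regions were in ZNF83 (chr19:52664211-52664966, with 8.04 and 10.6 in hESC and none later) and ZNF266 (chr19:9431499-9431919, with 5.40 and 6.70 in hESC and 2.42 in hAFE replicate 1).

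From hDE to hAFE, a comparison that also crosses from the re-analysed libraries to the others, the part of the series was not tested. The gained region lay at the upstream end of ZNF444 (chr19:56132192-56132843). It had folds of 18.1 and 15.3 in hAFE and 3.41 in hPFE and no peak before. The region in ZNF606 was lost. So were one in ZNF577, inside the overlapping gene FPR3 (chr19:51806874-51807816, 5.14 to 16.0 in the 4 hESC and hDE libraries), one at the downstream end of ZNF575 (chr19:43535466-43535839) and one 865 bp outside the start of ZNF439 (chr19:11847394-11848084), which had a peak again in hPFE. From hAFE to hPFE, the gained regions in ZNF814, ZNF665 and ZNF114 had folds of 5.79, 6.60 and 4.68. The lost ones, in ZNF444, ZNF765 and ZNF536, had 14.2 and 15.3, 10.1 and 6.99, and 11.4 and 8.52 in hAFE.

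From hESC to hPFE, 3 gained regions led by −log10 p: one in ZNF507 (chr19:32373555-32374257), with no peak in hESC or hDE, folds of 6.52 and 12.8 in hAFE and 17.4 in hPFE, and those in ZNF814 and ZNF665 above. The lost regions were led by one beside ZNF816 (chr19:52946039-52946922), with folds of 7.73 and 13.4 in hESC, 4.92 and 7.02 for hDE and 3.60 for hAFE replicate 1, and none in hAFE replicate 2 or hPFE. The ZNF577 region came next, and then one in ZNF160 (chr19:53076754-53077482), which had 4.12 to 22.3 in the 6 earlier libraries. Of the 11 lost regions, 8 lay in the cluster from ZNF175 to ZNF331, which holds 72 of the 354 member regions (20.3%), a grouping seen after the regions were listed and not tested.

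**Figure D5:**
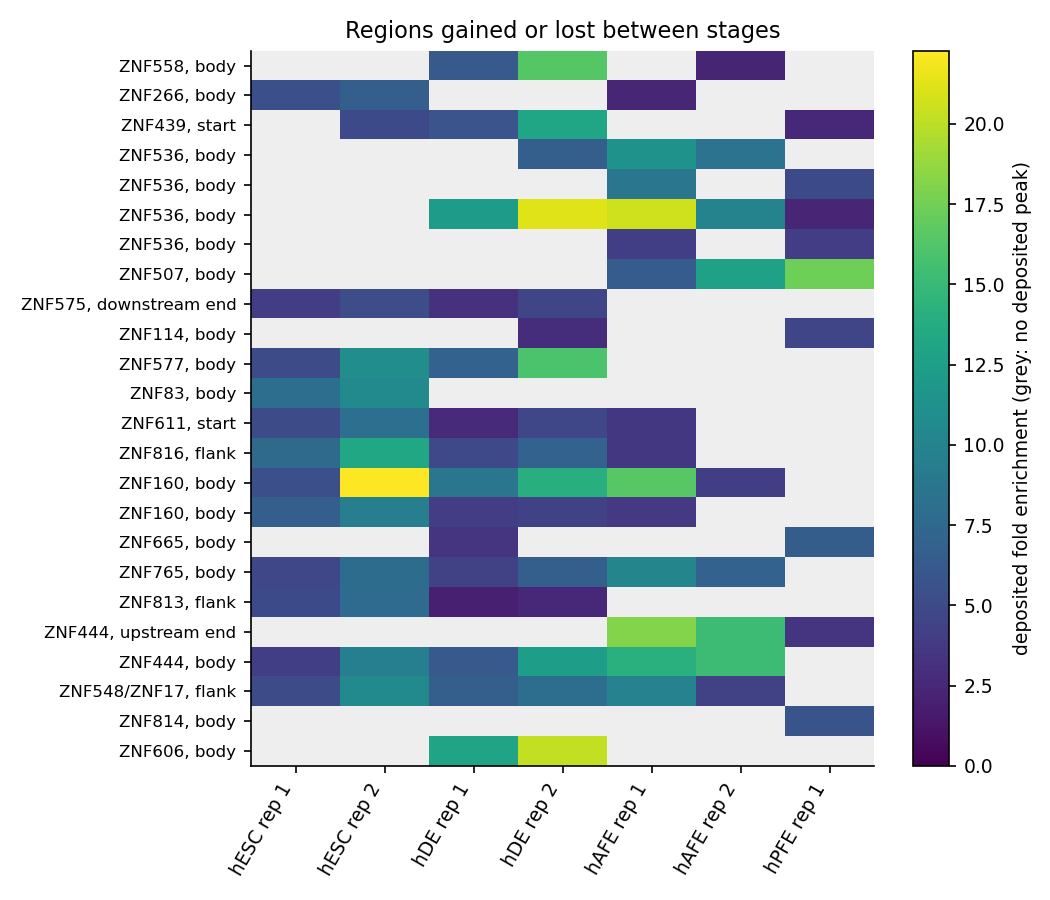
Deposited fold enrichment (colour scale) in the 7 libraries (columns) of the 24 regions of chromosome 19 ZNF genes gained or lost in a comparison (rows, in order along the chromosome, named by gene and place); grey means no deposited peak. In the rows from ZNF577 to ZNF813 every region shows a peak in the 2 hESC columns and none in the hPFE column, except that of ZNF665, which has none in hESC and one in hPFE.

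ZNF536 differed from the other members in its body. It held 23 regions, 21 of them in the body, while ZNF875, ZNF610, ZNF160 and ZNF765 came next with 3 body regions each and 203 members had none. Of the 23, the number strict was 3 and 11 in hESC, 4 and 9 for hDE, 7 and 8 for hAFE and 5 for hPFE, and the replicates of a stage differed as much as the stages. Its span of 487995 bp compares with a median of 23131 bp over the family.

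The overlap of strict member regions between stages was close to that between replicates. The share of bases in common (Jaccard index) was 0.744 on average within the 3 replicate pairs and 0.720 between stages. The difference of 0.024 did not pass the one-sided exact permutation test, which regrouped the libraries as 3 pairs and a single one in every possible way (p = 0.0571, where the smallest possible is 0.00952). With 100000 regions per library it was 0.044 and with every deposited peak 0.050 (exact permutation p = 0.00952 for each). At all other protein-coding genes the index was 0.566 within and 0.432 between stages, and the members were higher in 3 of 3 replicate pairs and 18 of 18 pairs of stages, a difference given without a test. The sets differ in make-up: 205 of 354 member regions were at member starts, against 12374 of 71849 regions at starts for the other genes. Start regions were more often strict in all libraries in both sets, and the index was not computed for starts alone.

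The partners of the KRAB proteins were described on a list of 26 genes of the silencing machinery, among them TRIM28, SETDB1, the HP1 genes CBX1, CBX3 and CBX5, the HUSH subunits TASOR, MPHOSPH8 and PPHLN1, ATRX, DAXX and the DNA methyltransferases. Of their 54 regions with a height, 1 rose and 2 fell from hESC to hDE, 2 rose and 1 fell from hDE to hAFE, limma called 0 from hAFE to hPFE (2 higher and 2 lower at an unadjusted p below 0.05), and 3 fell from hESC to hPFE. The shares of all regions higher and lower were 4.49% and 3.21%, 3% and 3.12%, 1.37% and 1.54%, and 3.68% and 4.03%. No region of TRIM28 was called. The median log2 differences of the list were -0.11, 0.03, 0.07 and 0.02.

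The called regions of that list were named after their values were seen, and their calls were not recomputed with libraries left out. Replicates were unequal at HDAC1 (1.91 and 0.73 in hDE), KDM4C (1.14 and 2.83 in hDE) and KDM4B (1.09 and 2.83 in hESC). They were closer at ATF7IP (0.46 and 0.37 in hDE) and DNMT3A (1.86 and 1.61 in hESC). From hESC to hDE a region in KDM4C, a histone demethylase, rose (log2 difference 1.62 ± 0.47 SE, limma adjusted p = 0.0125), and regions of DNMT3A and KDM4B fell (-1.67 ± 0.45 SE and -2.27 ± 0.47 SE). From hDE to hAFE start regions of HDAC1 (1.42 ± 0.36 SE, limma adjusted p = 0.00392) and ATF7IP, a partner of SETDB1 (1.97 ± 0.47 SE, limma adjusted p = 0.00128), rose, and the KDM4C region fell (-2.55 ± 0.47 SE). From hESC to hPFE the same DNMT3A and KDM4B regions and a region of EHMT1 fell by 1.89, 1.83 and 2.04 on the log2 scale. Of 112 regions of the list, 8 were gained (7.14%) and 11 lost (9.82%) from hESC to hPFE, against 11.9% and 5.73% of all regions at protein-coding genes.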

How the data were processed

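The 7 ATAC-seq peak lists of H1 cells, 1 per library and none pooled, were used. Per the labels' protocols, about 50000 cells were lysed and tagmented, and the amplified, bead-selected DNA was sequenced from both ends (NextSeq500). The submitters' processing notes name hg38 and DiffBind. The deposited file names record trimming, removal of duplicates and mitochondrial reads, a p limit of 0.01 and a limit of 300000 peaks; the sources used here do not give the aligner or peak caller. Per the values deposited by the authors, each peak has a fold enrichment (a ratio over a local background) and −log10 p and −log10 q, and no read number. The score column deposited by the authors, which scales −log10 p for display, was left out. Fold and −log10 p gave a whole summit count in 100% of peaks within 0.001 of −log10 p.

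Members were matched to the RefSeq tables of GRCh38.p14. Overlapping peaks of a library were merged, and the 50000 regions of highest −log10 p were called strict. Log2 summit counts were quantile normalised and tested with limma 3.58.1 (R 4.3.3) over all 39728 regions present in 7 libraries, with Benjamini-Hochberg adjustment and a threshold of 0.05. In simulated data for hDE against hESC on these regions, 74% of 2-unit and 97% of 4-unit log2 changes were recovered, and 9.52% of the calls were false. That false share is above the threshold of 0.05. The simulated noise followed the spread that limma itself fitted, so that spread was not checked, and comparisons with hPFE were not simulated. Shares and densities were tested with exact sign-flip permutations over the 7 libraries, adjusted over 4 tests. A start is any listed start; that choice was made after seeing that genes have several. Genes named are a fixed set of 10, the 5 tallest and 5 lowest starts, the 5 with most body regions, and per comparison up to 5 called regions and 3 gained and 3 lost regions. The members and lists were chosen with earlier results of these data known. A planned grouping by KRAB domain and finger number was not run, since no protein table was at hand. Confidence intervals are not given, and the limma differences of named member regions carry an SE. Read depth per peak is only known at the summit.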

Additional observations from a re-analysis of the deposited data

How the results depend on the processing

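The higher share of open starts and the lower body density against the other genes of chromosome 19 held their direction and passed the test under every alternative run. Against ZNF genes elsewhere, the difference in open starts passed with 25000 regions per library (5.66 points), with 500 bp (4.32) and, chosen after seeing the data, with the first listed start only (2.63), and the body density turned to 0.092 per 100 kb higher with 25000 regions. The difference in similarity between replicates and stages passed with 100000 regions (0.044) and every deposited peak (0.050). The causes were not tested.

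Height calls from hESC to hDE numbered 1 with median centring, 0 on the deposited fold enrichment and 1 with only the libraries of the 2 stages. Calls from hDE to hAFE numbered 0 on the fold enrichment, and those from hAFE to hPFE 2 with median centring. Leaving out 1 library at a time gave 0 to 2, 0 to 1, 0 to 1 and 5 to 5 calls in the 4 comparisons in the order of the report. From hESC to hPFE the calls were not the same regions: the 4 were all lower, whereas without hESC replicate 2 there were 3 higher and 2 lower, with 2 regions shared, and on the deposited fold enrichment 1 higher and 3 lower, with 2 shared. The same gave 3 to 7, 1 to 3, 4 to 5 and 6 to 7 gained regions and 2 to 9, 4 to 6, 5 to 11 and 16 to 32 lost regions. A stage left with 1 library is assumed to vary like the others.

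With 25000 regions per library, 0 were lost from hESC to hDE, 1 from hDE to hAFE, 0 were gained and 0 lost from hAFE to hPFE, and 1 was gained and 2 lost from hESC to hPFE. With 100000, the gained and lost counts were 13 and 8, 5 and 14, 34 and 13, and 41 and 35.

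With the replicate number as a block, the calls numbered 2, 1, 1 and 3, and the ZNF565 start was the call lost. The replicate numbers did not pair the samples: replicate differences correlated at -0.031 (hESC and hDE), -0.285 (hESC and hAFE) and 0.186 (hDE and hAFE). Of 57 single-region differences recomputed, 36 stayed on their side of the threshold and 21 no longer passed. Absence here means absence from a list limited to 300000 peaks, and the weakest peak listed differed between libraries. Its −log10 p was 2.23 in hESC replicate 1, the shallowest library, and 8.86 in hDE replicate 2, the deepest. A weak peak can thus be missing from the list of a deep library too. How far depth or the limit decided the gained and lost counts was not tested, and hPFE has 1 library.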
